A study of Homo sapiens with 10 samples.

Results

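The nuclear factor I genes NFIA, NFIB, NFIX and NFIC encode 4 related transcription factors, and the acetylation islands over them were followed in a human astrocyte line before and during expression of mutant IDH1. An island is a stretch of sequence that the authors' peak caller found enriched over a control. The members are all islands that overlapped the hg19 window of a gene widened by 10 kb on each side: chr1:61533001-61938000 for NFIA (405 kb), chr9:14072001-14409000 for NFIB (337 kb), chr19:13097001-13220000 for NFIX (123 kb) and chr19:3350001-3479000 for NFIC (129 kb). They number 404 of the 778773 islands in 9 lists, and the rule uses positions, not measured values. The windows came with the gene names and hold introns, exons and flanks together; exons, introns and transcript starts were not placed in them, because the annotation used here is on GRCh38.p14. For the same reason the labelled cell type was not checked against astrocyte markers.

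The cells were immortalized human astrocytes (IHA), a commercial fetal astrocyte line carrying SV40 that was grown with EGF and 10% FBS. CUT&RUN was used, in which a nuclease tethered to an antibody cuts out the DNA around the antibody's target for sequencing. Antibodies to H3K9ac, H3K27ac and H4K16ac were each applied to 3 groups: cells never given doxycycline (noDox), cells after 2 days of doxycycline at 1 µg/ml (2d-Dox) and cells after 7 days of it (7d-Dox). Doxycycline induces IDH1-R132H, the cancer-associated mutant of isocitrate dehydrogenase 1, and the series asks how that protein alters the marks. All groups come from the same line, and the control was 1 library made with an anti-rabbit HRP secondary antibody on noDox cells. Each mark and time has 1 library, so no value below has a replicate error and no test between times was possible. No library from cells given doxycycline without IDH1-R132H was analysed here, so doxycycline, time in culture and IDH1-R132H cannot be told apart.

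Nuclear factor I proteins bind DNA as dimers, to a palindrome whose half-site is TTGGC. Work in mouse and chick ties NFIA and NFIB to the switch of neural progenitors from making neurons to making glia, and both are used to convert human cells into astrocytes. NFIX is known in mouse for its roles in neural stem cells and fetal muscle, and NFIC for its role in forming tooth roots. Of the marks, H3K9ac and H3K27ac are found at promoters and enhancers in use, whereas acetylation of H4K16 is spread more widely and loosens the packing of nucleosomes.

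All 4 genes have a promoter dense in CpG, the CG step that is rare elsewhere in the genome. For each gene the RefSeq promoter with the most CpG is shown, from 250 bases before to 50 after the start, on GRCh38.p14. These are chr1:61082311-61082610 on the plus strand, chr9:14314092-14314391 on the minus strand, chr19:12995225-12995524 on the plus strand and chr19:3359380-3359679 on the plus strand. Capitals mark CpG, and each sequence runs 5′ to 3′ on the gene's strand.
NFIA: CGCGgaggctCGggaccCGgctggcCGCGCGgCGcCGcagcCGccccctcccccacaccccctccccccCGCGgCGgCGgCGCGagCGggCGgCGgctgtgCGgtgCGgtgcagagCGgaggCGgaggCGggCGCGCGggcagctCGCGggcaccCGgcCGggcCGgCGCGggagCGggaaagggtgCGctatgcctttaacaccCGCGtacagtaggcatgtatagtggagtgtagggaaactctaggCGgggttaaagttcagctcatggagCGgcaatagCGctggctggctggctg
NFIB: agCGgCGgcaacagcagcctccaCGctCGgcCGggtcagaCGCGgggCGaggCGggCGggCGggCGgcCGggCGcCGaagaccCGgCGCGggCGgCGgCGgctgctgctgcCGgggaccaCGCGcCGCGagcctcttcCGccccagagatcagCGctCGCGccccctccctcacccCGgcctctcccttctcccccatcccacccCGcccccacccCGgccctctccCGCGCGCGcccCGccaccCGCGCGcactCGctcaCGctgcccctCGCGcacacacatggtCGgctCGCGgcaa
NFIX: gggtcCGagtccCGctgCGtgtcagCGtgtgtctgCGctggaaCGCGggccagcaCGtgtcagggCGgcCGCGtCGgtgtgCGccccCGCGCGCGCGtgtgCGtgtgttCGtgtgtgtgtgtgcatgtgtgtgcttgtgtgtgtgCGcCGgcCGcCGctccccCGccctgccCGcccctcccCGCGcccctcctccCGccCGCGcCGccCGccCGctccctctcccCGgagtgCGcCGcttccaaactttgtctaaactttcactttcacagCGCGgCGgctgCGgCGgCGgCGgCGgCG
NFIC: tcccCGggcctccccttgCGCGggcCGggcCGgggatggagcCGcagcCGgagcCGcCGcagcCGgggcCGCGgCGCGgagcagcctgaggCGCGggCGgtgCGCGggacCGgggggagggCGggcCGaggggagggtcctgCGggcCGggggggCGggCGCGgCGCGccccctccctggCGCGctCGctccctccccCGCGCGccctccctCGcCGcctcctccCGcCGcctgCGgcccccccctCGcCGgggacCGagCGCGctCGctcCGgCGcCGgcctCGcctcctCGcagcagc
The NFIA sequence holds 41 CpG, NFIB 48, NFIX 46 and NFIC 51, against a median of 14 over 35116 RefSeq promoters of the same length. Their GC content was 74.3% for NFIA, 80.0% for NFIB, 74.0% for NFIX and 86.3% for NFIC. RefSeq lists 3 promoters for NFIA, 10 for NFIB, 5 for NFIX and 1 for NFIC, and these range from 3 to 51 CpG. The lowest counts were 10 in NFIA, 3 in NFIB and 7 in NFIX. Except for NFIC, with 1 promoter, choosing the one with the most CpG itself favours a count above the median. The half-site TTGGC, sought on both strands, was in 9 of the 19 promoters and in 45.6% of all promoters, and in none of the 4 shown. The whole palindrome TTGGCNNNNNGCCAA was in 0 of the 19 and in 0.0285% of all. These promoters were not placed on the islands, since the builds differ.

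Reads below are depth-scaled unless given as counts: the antibody reads of an island divided by the size of their library relative to the HRP library. At noDox, 2d-Dox and 7d-Dox that size was 3.05, 4.17 and 4.88 in H3K9ac and 3.98, 3.15 and 1.49 in H3K27ac. In H4K16ac it was 2.53, 3.08 and 7.88. The 7d-Dox library was thus 0.375 times the noDox library in H3K27ac and 3.11 times in H4K16ac. Library size differed with time in all 3 marks, so depth and time cannot be told apart in any comparison below. Intervals are exact at 95% and cover counting error only, and PCR reads are not independent molecules.

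NFIB and NFIX lay in broad H3K27ac domains, NFIC in a smaller one, and NFIA carried little of any mark. In H3K27ac, islands of the NFIB window held 2592, 2562 and 2025 scaled reads at noDox, 2d-Dox and 7d-Dox, over 195.8, 171.8 and 133.8 kb of called sequence. The NFIX islands held 1232, 1070 and 1311 scaled reads over 83.6, 67.6 and 71.2 kb. The NFIC islands held 532, 424 and 618 scaled reads over 50.4, 46.0 and 44.4 kb. The NFIA islands held 98.0, 93.7 and 103 scaled reads over 10.6, 7.0 and 8.0 kb, although its window is the longest of the 4. Per kb of window the order at all 3 times was NFIX (10.0, 8.70 and 10.4 scaled reads per kb), NFIB (7.69, 7.60 and 6.01), NFIC (4.12, 3.29 and 4.79) and NFIA (0.242, 0.231 and 0.255).

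Set against genome windows of the same length that held an island of any mark at any time, NFIB and NFIX stood near the top in H3K27ac. Windows without any island were left out of these and the later rankings by level, so ranks among all windows are not given. For NFIB, 99.5%, 99.5% and 98.3% of 7613 windows had less H3K27ac at noDox, 2d-Dox and 7d-Dox. The shares for NFIX were 99.2%, 99.0% and 99.4% of 18194 windows, and for NFIC 90.6%, 88.0% and 93.8% of 17461. NFIA was below the median of the windows ranked: 31.3%, 30.7% and 31.1% of 6449 windows had less. The reads of NFIA were in few places, whereas those of NFIB and NFIX filled between 39.7% and 68.0% of the window.

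In H3K9ac, NFIC and NFIA again came after the other two, and NFIX was below NFIB at noDox and above it at both later times. Per kb of window NFIB had 3.13, 2.91 and 2.90 scaled reads at noDox, 2d-Dox and 7d-Dox, and NFIX had 2.83, 3.80 and 4.04. NFIC had 1.09, 1.20 and 0.819, and NFIA 0.127, 0.130 and 0.144. Of the genome windows of NFIB's length, 99.3%, 98.8% and 98.5% had less H3K9ac. For NFIX the shares were 95.9%, 99.3% and 99.5%, for NFIC 68.5%, 70.8% and 59.7%, and for NFIA 29.8%, 30.1% and 30.3%. With 1 library each, how far NFIB and NFIX differ from each other beyond the spread between libraries is not known.

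H4K16ac stood out less over these genes. NFIX had 1.92, 1.62 and 2.63 scaled reads per kb of window at noDox, 2d-Dox and 7d-Dox, more than 90.3%, 83.0% and 89.3% of its genome windows. NFIB had 0.966, 1.24 and 1.95, more than 72.5%, 79.0% and 83.8% of windows. NFIC, at 0.233, 0.241 and 0.310, was above 37.2%, 39.3% and 37.3% of windows. NFIA, at 0.0575, 0.0888 and 0.0755, was above 24.3%, 28.6% and 25.5%. The median of the windows ranked, all holding an island in some list, was 0.452, 0.475 and 0.676 at NFIA's length.

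**Figure D1:**
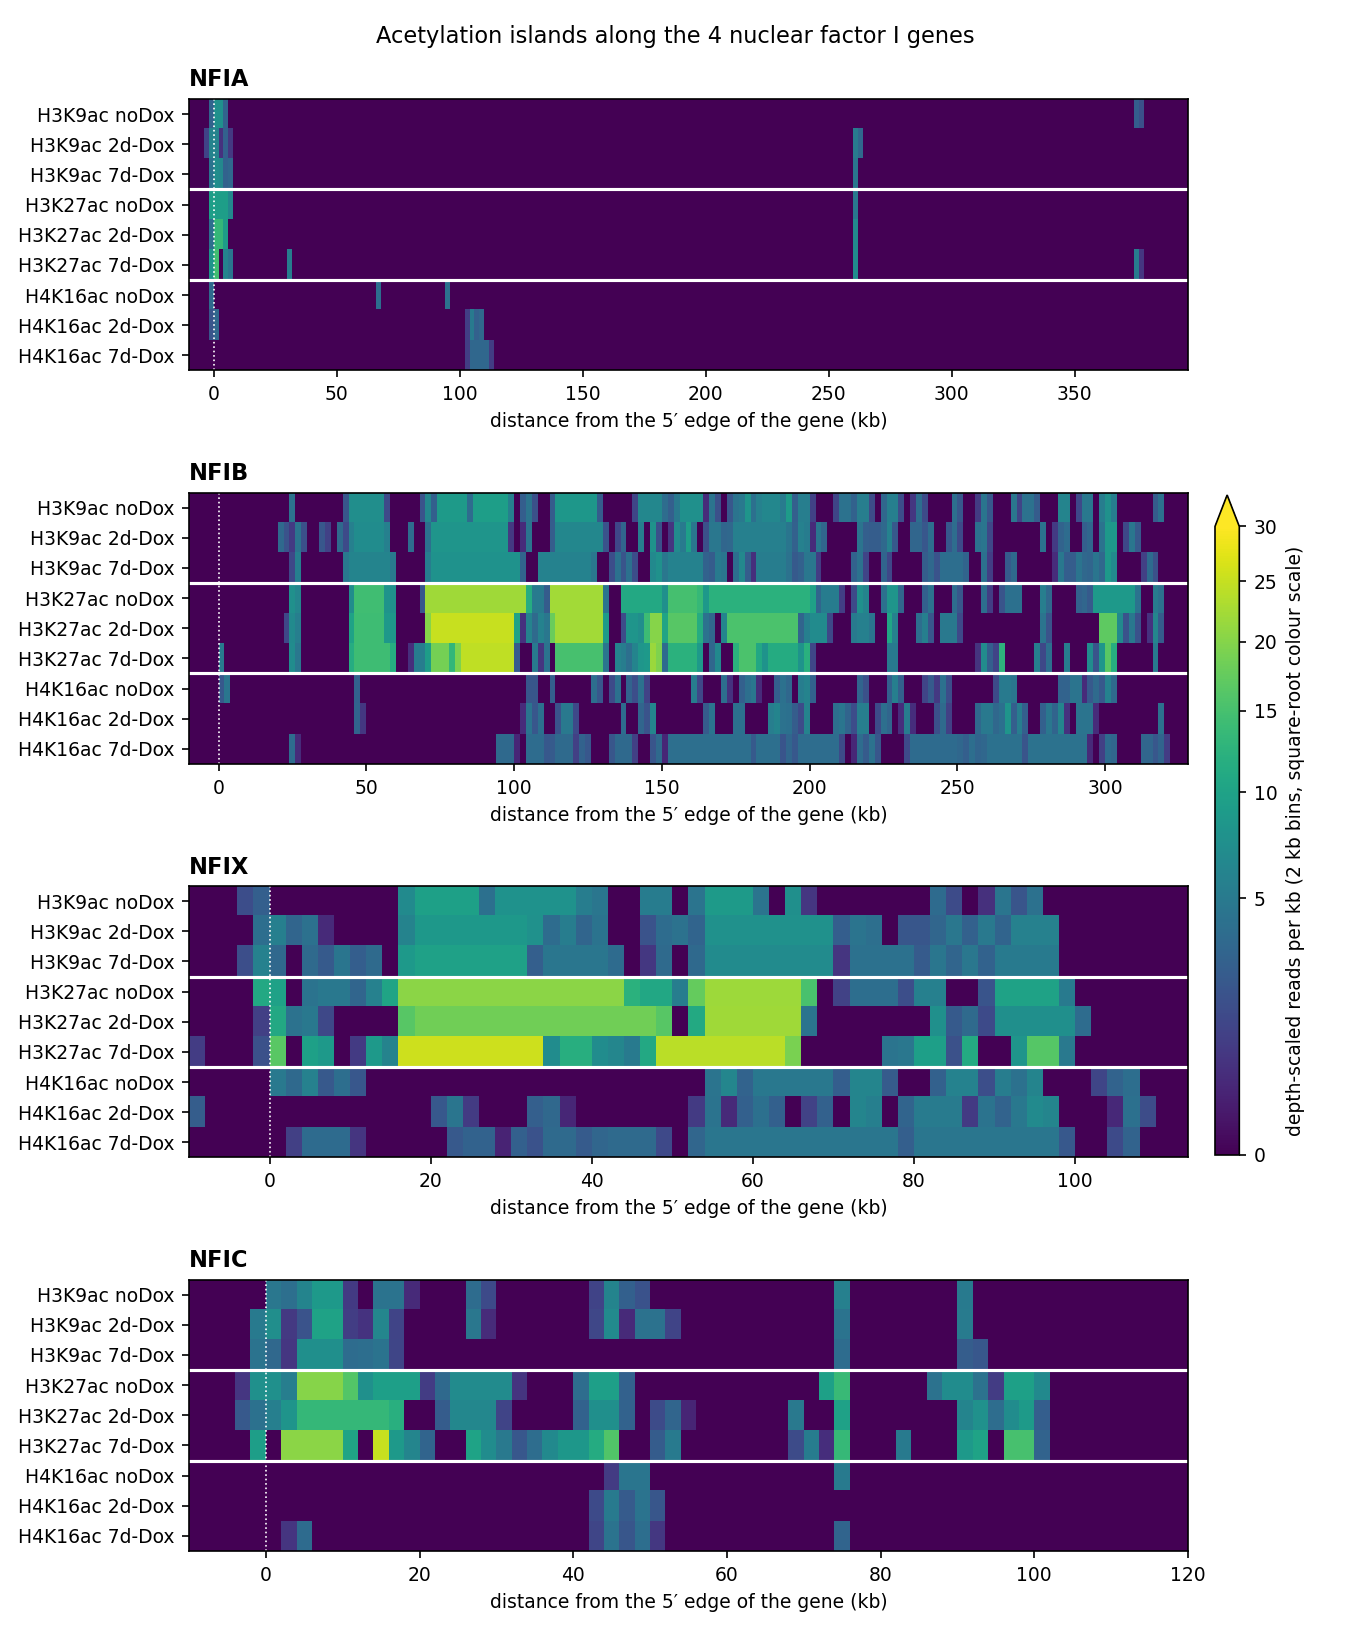
Depth-scaled antibody reads per kb in 2 kb bins (colour, square-root scale) along each gene window, for the 9 libraries in rows; the x axis is the distance in kb from the 5′ edge of the gene and the dotted line is that edge. NFIB and NFIX show wide H3K27ac blocks inside the gene at all 3 times. NFIA has its H3K9ac and H3K27ac reads, but not its H4K16ac reads, mostly at the 5′ edge. H4K16ac covers much more of NFIB at 7d-Dox (169.8 kb) than at noDox (57.8 kb).

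The position of the islands differed between the genes. NFIA had its H3K9ac and H3K27ac at the 5′ edge, which an island covered at all 3 times in both marks. The edge region of H3K27ac, chr1:61541001-61550400, held 352, 252 and 99 reads, or 88.4, 80.1 and 66.4 scaled reads. The islands within 10 kb of the edge held 90.3%, 85.4% and 64.3% of the H3K27ac reads of the NFIA window. The edge region of H3K9ac, chr1:61540601-61550600, had 42.6, 35.2 and 48.9 scaled reads. A second NFIA site at chr1:61803401-61804600, 260.4 kb inside the gene, carried H3K27ac at all 3 times with 9.55, 13.7 and 14.1 scaled reads. H3K9ac was called at the same place, in chr1:61803201-61806200, with 17.3 scaled reads at 2d-Dox and 9.21 at 7d-Dox and no island at noDox.

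NFIB had most of its H3K9ac and H3K27ac well inside the outer 5′ edge. That edge need not be the start in use: RefSeq lists 10 NFIB promoters, and whether one of them lies in the domains below was not tested, since the builds differ. No island of any of the 9 lists covered the edge. The nearest H3K9ac islands began 24.4, 20.2 and 25.6 kb away at noDox, 2d-Dox and 7d-Dox. The nearest H3K27ac islands were 24.8 and 23.6 kb away at noDox and 2d-Dox, and at 7d-Dox a 600 bp island of 15 reads lay 1.4 kb from the edge. In H4K16ac the nearest islands were 1.2, 47.2 and 24.4 kb away, the first of 2400 bp with 35 reads. The region with the most H3K27ac reads, chr9:14287401-14333200, spans 45.8 kb from 65.8 to 111.6 kb inside the edge. It held 3197, 2535 and 1020 reads, or 803, 805 and 684 scaled reads. The region with the most H3K9ac reads, chr9:14292201-14329600, lies inside that stretch and had 262, 233 and 249 scaled reads.

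NFIX had both an edge island and a wide inner domain. H3K27ac covered its 5′ edge at all 3 times in chr19:13105001-13109600, with 41.7, 30.5 and 36.9 scaled reads at noDox, 2d-Dox and 7d-Dox. Its largest region, chr19:13122001-13174400, runs for 52.4 kb from 15.0 to 67.4 kb inside the gene. That region had the most H3K27ac reads of any in the 4 windows: 3973, 2874 and 1501 reads, or 998, 913 and 1007 scaled reads. The largest H3K9ac region, chr19:13123201-13150600, lay within it and had 197, 180 and 204 scaled reads.

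NFIC carried its largest H3K27ac region over the 5′ part of the gene. That region, chr19:3357001-3381000, spans 24.0 kb across the edge and had 270, 224 and 290 scaled reads, although the edge base itself was called only at noDox. The largest H3K9ac region, chr19:3363801-3371000, begins 3.8 kb inside and had 48.9, 45.8 and 53.8 scaled reads. H4K16ac of NFIC was mainly 43.4 to 51.0 kb inside, in chr19:3403401-3411000, with 19.7, 31.1 and 25.0 scaled reads. RefSeq, on its own build, places SMIM24 beside NFIC, LYL1 and TRMT1 beside NFIX, and the antisense RNAs NFIA-AS1, NFIB-AS1 and NFIX-AS1 within their genes. The islands do not say which of these a read belongs to.

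In these windows H3K9ac and H3K27ac shared most of their sequence, and H4K16ac covered a larger share of both at 7d-Dox. Over the 4 windows, 86.8%, 76.8% and 66.6% of the H3K9ac length was also called for H3K27ac at noDox, 2d-Dox and 7d-Dox. The share of the H3K27ac length also called for H3K9ac was 58.2%, 68.2% and 71.7%. H4K16ac was called over 21.1%, 31.3% and 62.2% of the H3K9ac length and 22.0%, 23.5% and 49.9% of the H3K27ac length. Of the H4K16ac length itself, a falling share was also called for H3K27ac (69.7%, 51.8% and 47.7%). The share also called for H3K9ac was 44.8%, 61.3% and 64.1%. Sequence called for all 3 marks came to 43.0, 56.6 and 107.2 kb, of which NFIB held 29.4, 30.4 and 61.6 kb and NFIX 12.6, 22.2 and 42.8 kb. In NFIA it came to 0, 1.6 and 0 kb. The overlaps moved with called length, which moved with library size, and the part of depth in them was not tested. Over the whole genome H4K16ac islands covered 276, 334 and 586 Mb at noDox, 2d-Dox and 7d-Dox. The overlap of the marks over the genome was not computed, so these shares are not known to be particular to the 4 genes.

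In H3K9ac, NFIX was higher with doxycycline at both times, NFIC lower at 7d-Dox, and NFIB slightly lower at both. NFIX held 1061, 1949 and 2428 reads, or 348, 467 and 497 scaled reads, at noDox, 2d-Dox and 7d-Dox. Its log2 ratio over noDox was 0.42 (interval 0.32 to 0.53) at 2d-Dox and 0.51 (0.41 to 0.62) at 7d-Dox, above 81.1% and 81.9% of genome windows of its length. Its called length was 44.6, 71.8 and 80.6 kb at noDox, 2d-Dox and 7d-Dox. Per kb of called island the sign turned, to -0.26 and -0.34. Over the bases called in both libraries, with each island's reads spread evenly over its length, it was -0.13 and -0.16. Reads were not counted in those bases themselves, so whether signal there differed is not known. The higher sum thus came with more called sequence, and the islands were on average not denser.

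NFIB held 1055, 980 and 977 scaled H3K9ac reads over 156.0, 157.4 and 166.8 kb, with a log2 ratio of -0.11 at both times (intervals -0.17 to -0.04 and -0.18 to -0.05). Of the genome windows of its length, 36.2% and 29.3% were lower, so NFIB lay within their quartiles. NFIC held 141, 155 and 106 scaled reads over 20.0, 21.2 and 17.6 kb. Its ratio was 0.13 (-0.05 to 0.31) at 2d-Dox and -0.42 (-0.60 to -0.23) at 7d-Dox, where 15.4% of genome windows were lower. NFIA held 51.5, 52.5 and 58.1 scaled reads, and both of its intervals included 0. Over the 4 genes together the log2 ratio was 0.052 (-0.0012 to 0.11) at 2d-Dox and 0.037 (-0.014 to 0.089) at 7d-Dox. The genome windows had medians between 0.01 and 0.07 at these times.

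Single H3K9ac regions differed in both directions. Touching islands of the 3 times were joined, which gave 47 H3K9ac regions. Of the 31 with an island at both 2d-Dox and noDox, 5 were at least 2-fold higher and 1 at least 2-fold lower, where 4.69% and 9.48% of 53097 such regions in the genome were. Of the 30 with an island at both 7d-Dox and noDox, 3 were higher and 3 lower, where 5.8% and 6.2% of 52137 were. A further 9 regions had an island at 2d-Dox only and 4 at noDox only, where the genome had 33264 and 19534 such regions beside the 53097 shared. For 7d-Dox these were 7 and 5, where the genome had 28589 and 20494 beside the 52137 shared.

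The largest 2d-Dox difference upward was at the NFIX 5′ edge, chr19:13104401-13110000. It had 27, 103 and 107 reads, or 8.86, 24.7 and 21.9 scaled reads, at noDox, 2d-Dox and 7d-Dox, and a log2 ratio of 1.48 (0.86 to 2.15) at 2d-Dox and 1.31 (0.69 to 1.97) at 7d-Dox. The island there was 1600 bp at noDox and 1.0 kb short of the edge, and it covered the edge at 2d-Dox (4400 bp) and 7d-Dox (3800 bp). At 7d-Dox the largest difference upward was in NFIB at chr9:14145401-14156000, with 12.5, 15.3 and 41.8 scaled reads and a ratio of 1.74 (1.24 to 2.28). NFIB also had the largest differences downward. Region chr9:14175601-14189600 had 50.8, 24.9 and 17.0 scaled reads, with ratios of -1.03 (-1.40 to -0.66) and -1.58 (-1.98 to -1.19). Its neighbour chr9:14168401-14174400 had 32.1, 23.5 and 9.01 scaled reads, with a ratio of -1.84 (-2.38 to -1.31) at 7d-Dox. Per kb of island, the 7d-Dox ratio was 0.06 for the NFIX edge, -0.52 for the NFIB region with the higher sum, and -0.20 and -0.30 for the NFIB pair with the lower sums.

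**Figure D2:**
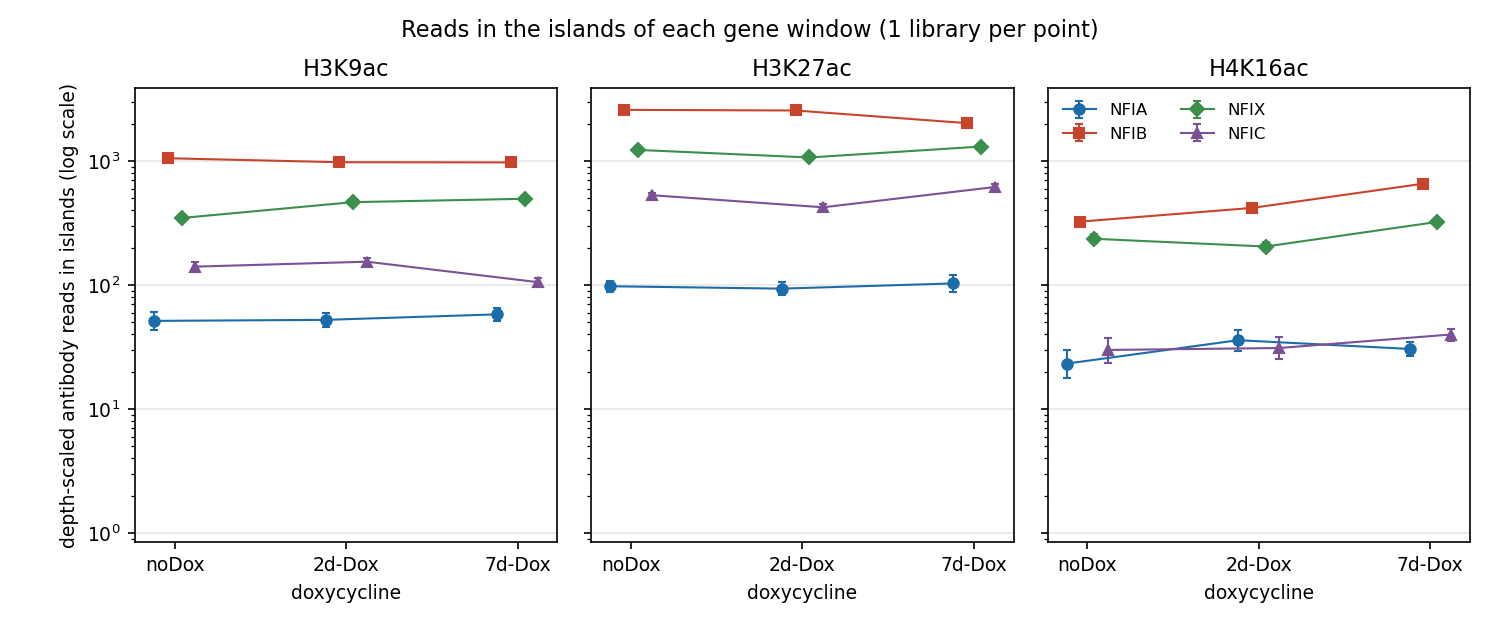
Depth-scaled antibody reads in the islands of each gene window (y axis, log scale) at noDox, 2d-Dox and 7d-Dox (x axis), 1 panel per mark; each point is 1 library and bars are exact 95% counting intervals. NFIB lies highest and NFIX next in every panel, and the widest spread over time is NFIB in H4K16ac, with 325, 419 and 658 scaled reads.

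In H3K27ac, NFIC and NFIX were lower at 2d-Dox and slightly higher at 7d-Dox, whereas NFIB was near its noDox level at 2d-Dox and lower at 7d-Dox. NFIB islands held 10317, 8062 and 3020 reads at noDox, 2d-Dox and 7d-Dox, and the log2 ratio was -0.02 (-0.06 to 0.03) at 2d-Dox and -0.36 (-0.42 to -0.30) at 7d-Dox. Of the genome windows of its length, 16.8% were lower at 7d-Dox. NFIC had a ratio of -0.32 (-0.42 to -0.23) at 2d-Dox, where 17.0% of its genome windows were lower. At 7d-Dox its ratio was 0.22 (0.10 to 0.33), where 70.4% were lower. NFIX had ratios of -0.20 (-0.27 to -0.14) and 0.09 (0.01 to 0.17), with 31.5% and 57.1% of its genome windows lower. NFIA had -0.06 (-0.29 to 0.16) and 0.08 (-0.20 to 0.35), and both intervals include 0. Scaling by the reads in islands moves every H3K27ac ratio at 2d-Dox by 0.10, which turns NFIB (0.09) and NFIA (0.04) but leaves the sign of NFIX and NFIC.

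The called H3K27ac length was shorter with doxycycline in all 4 genes, and reads per kb of island were higher in all but NFIC at 2d-Dox (-0.19). Called length at 7d-Dox was 0.683 times that at noDox in NFIB, 0.852 times in NFIX, 0.881 times in NFIC and 0.755 times in NFIA. Per kb of island the 7d-Dox log2 ratio was 0.19 in NFIB, 0.32 in NFIX, 0.40 in NFIC and 0.48 in NFIA. Over the bases called in both libraries, with reads spread evenly along each island, the NFIB ratio at 7d-Dox was 0.014. The H3K27ac library at 7d-Dox was also the smallest, and the part of its depth in these values was not tested.

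The 5 NFIB domains with the most H3K27ac at noDox differed among themselves. Between 112.0 and 130.8 kb inside the edge, chr9:14268201-14287000 had 410, 410 and 250 scaled reads, a 7d-Dox ratio of -0.71 (-0.88 to -0.55). Its neighbour from 65.8 to 111.6 kb, the largest, had a ratio of -0.23 (-0.33 to -0.13). Further in, chr9:14188601-14234800 had 491, 461 and 330 scaled reads, a ratio of -0.57 (-0.72 to -0.43), and chr9:14235201-14248000 had 191, 204 and 148, a ratio of -0.37 (-0.60 to -0.16). Nearest to the edge, chr9:14339201-14354600 had 190, 196 and 218 scaled reads, a ratio of 0.20 (0.01 to 0.39). Apart from the largest, these domains were chosen after their values were seen. The large NFIX region, in contrast, had a 7d-Dox ratio of 0.01 (-0.07 to 0.10), and the NFIC 5′ region one of 0.10 (-0.06 to 0.27).

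Of the 42 H3K27ac regions, 27 had an island at both 2d-Dox and noDox, and 1 was at least 2-fold higher and 2 at least 2-fold lower, where 0.457% and 3.38% of 42464 regions in the genome were. Of the 28 shared by 7d-Dox and noDox, 1 was higher and 2 lower, where 2.2% and 8.61% of 38736 were. The 1 higher, named for being alone, was chr9:14138201-14141200 in NFIB, with 39 reads at noDox and 31 at 7d-Dox, or 9.80 and 20.8 scaled reads. Scaling by the reads in islands made the 7d-Dox split 2 higher and 2 lower, and the genome's shares on that scaling were not computed. The largest difference upward at 2d-Dox was in NFIB at chr9:14148201-14155000, with 11.8 and 32.4 scaled reads at noDox and 2d-Dox and no island at 7d-Dox, a ratio of 1.46 (0.94 to 1.99). The largest downward was in NFIC at chr19:3432601-3436000, with 47.0, 19.7 and 26.8 scaled reads and a 2d-Dox ratio of -1.25 (-1.69 to -0.83). At 7d-Dox the largest upward with at least 50 reads was in NFIC at chr19:3396401-3406800, with 51.5, 41.6 and 101 scaled reads and a ratio of 0.98 (0.66 to 1.29). The largest downward was in NFIX at chr19:13178401-13185200, with 26.1 and 10.7 scaled reads at noDox and 7d-Dox, no island at 2d-Dox, and a ratio of -1.28 (-2.14 to -0.52).

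**Figure D3:**
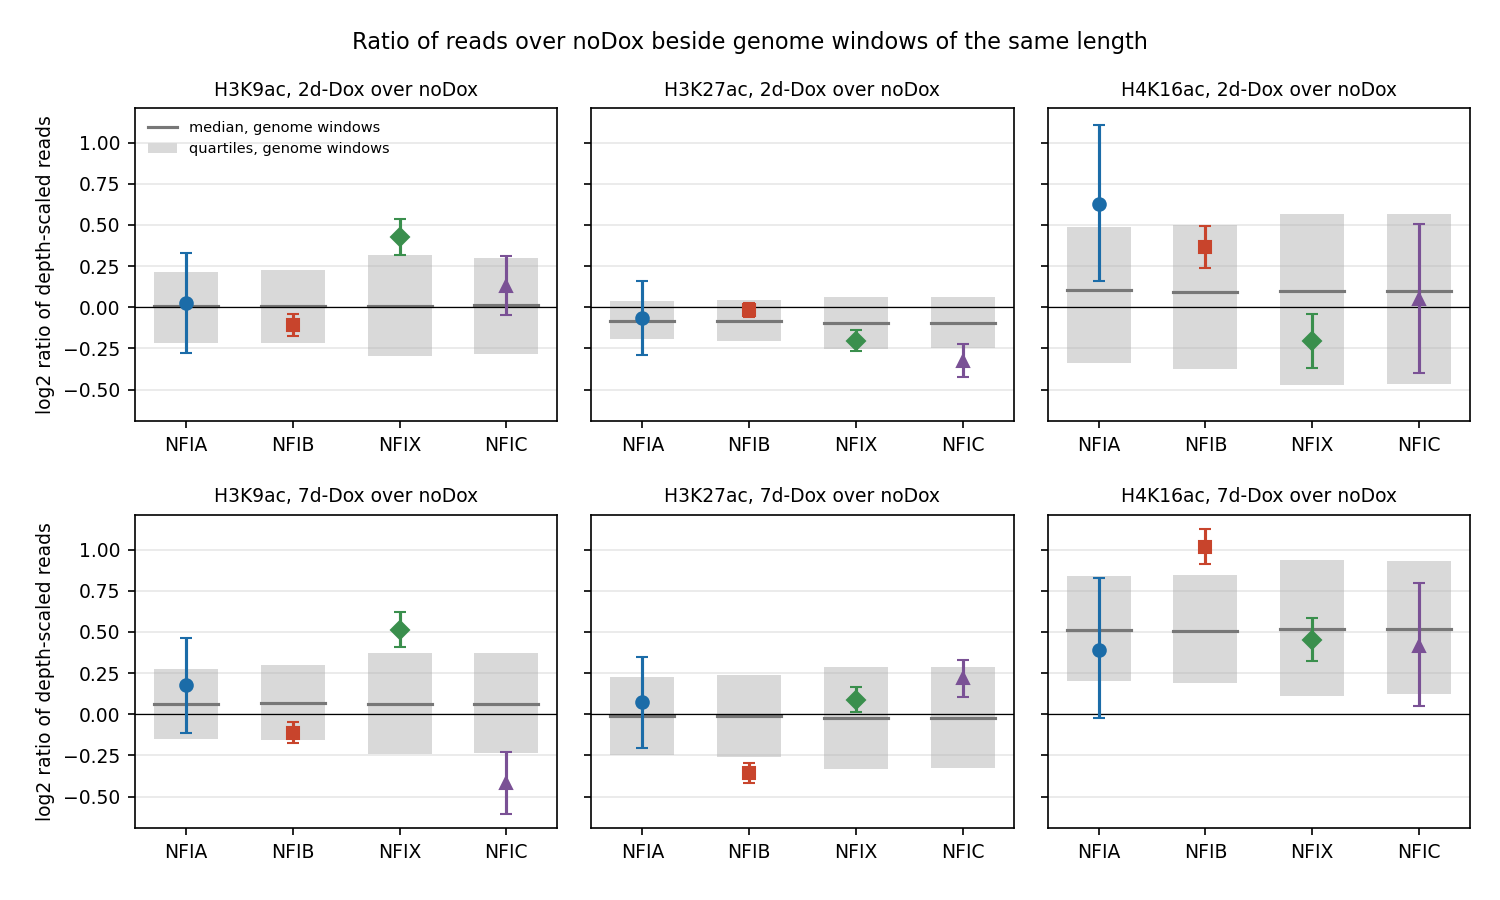
Log2 ratio of depth-scaled reads over noDox (y axis) for each gene in 3 marks, at 2d-Dox (upper row) and 7d-Dox (lower row). Bars are exact 95% counting intervals. Grey boxes are the quartiles and grey lines the median of genome windows of the gene's length. These are windows with islands in both libraries and 50 or more unscaled reads in 1 of them. NFIX lies above the box in H3K9ac at both times, and NFIB below it in H3K27ac and above it in H4K16ac at 7d-Dox. NFIC lies below it in H3K9ac at 7d-Dox and in H3K27ac at 2d-Dox, and NFIA above it in H4K16ac at 2d-Dox. The H4K16ac boxes at 7d-Dox are themselves centred near 0.51.

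H4K16ac sums were higher at 7d-Dox in NFIB, and by less in NFIX, NFIC and NFIA, which turn to -0.06, -0.10 and -0.12 when scaled by the reads in islands. That scaling moves every H4K16ac ratio at 7d-Dox by -0.51. With HRP reads subtracted, the 7d-Dox ratio was 0.56 in NFIB, 0.30 in NFIX, -0.21 in NFIC and -1.01 in NFIA. The same subtraction gave NFIC -0.99 at 2d-Dox and kept the sign of the other genes there. Per kb of island the 7d-Dox ratio was -0.54 in NFIB, -0.46 in NFIX, -0.47 in NFIC and -1.04 in NFIA. NFIB islands held 824, 1294 and 5186 reads at noDox, 2d-Dox and 7d-Dox, or 325, 419 and 658 scaled reads. Its log2 ratio was 0.37 (0.24 to 0.49) at 2d-Dox and 1.02 (0.91 to 1.12) at 7d-Dox, which is 2.02-fold. Genome windows of NFIB's length had a median of 0.51 at 7d-Dox, 82.8% were lower than NFIB, and 17.7% of 5933 were at least 2-fold higher. The ratio of NFIX was -0.21 (-0.37 to -0.04) and 0.45 (0.32 to 0.58), with 237, 205 and 323 scaled reads. NFIC had 0.05 (-0.40 to 0.51) at 2d-Dox and 0.41 (0.05 to 0.79) at 7d-Dox. NFIA, with 23.3, 36.0 and 30.6 scaled reads, had the highest 2d-Dox ratio of the 4, 0.63 (0.16 to 1.11), above 82.2% of genome windows, and 0.39 (-0.02 to 0.83) at 7d-Dox. At 7d-Dox NFIX, NFIC and NFIA were all below the median of their genome windows.

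The NFIB value turned with the measure. Called H4K16ac length in NFIB was 57.8, 79.6 and 169.8 kb at noDox, 2d-Dox and 7d-Dox, and the widest island was 6.4, 6.8 and 29.0 kb. Per kb of island NFIB had 5.63, 5.27 and 3.88 scaled reads, a 7d-Dox log2 ratio of -0.54. Over the 41.8 kb called in both libraries, with reads spread evenly along each island, the ratio was -0.49. Scaling by the reads in islands gave 0.51, and taking off the HRP reads gave 0.56. The HRP library had 106, 123 and 334 reads in these islands, or 32.6%, 29.3% and 50.8% of the scaled antibody reads. The median fold of the NFIB islands over HRP, from the authors' deposited lists, was 2.76, 4.54 and 2.04. The H4K16ac library at 7d-Dox was 3.11 times as large as at noDox, and depth and time cannot be told apart here.

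**Figure D4:**
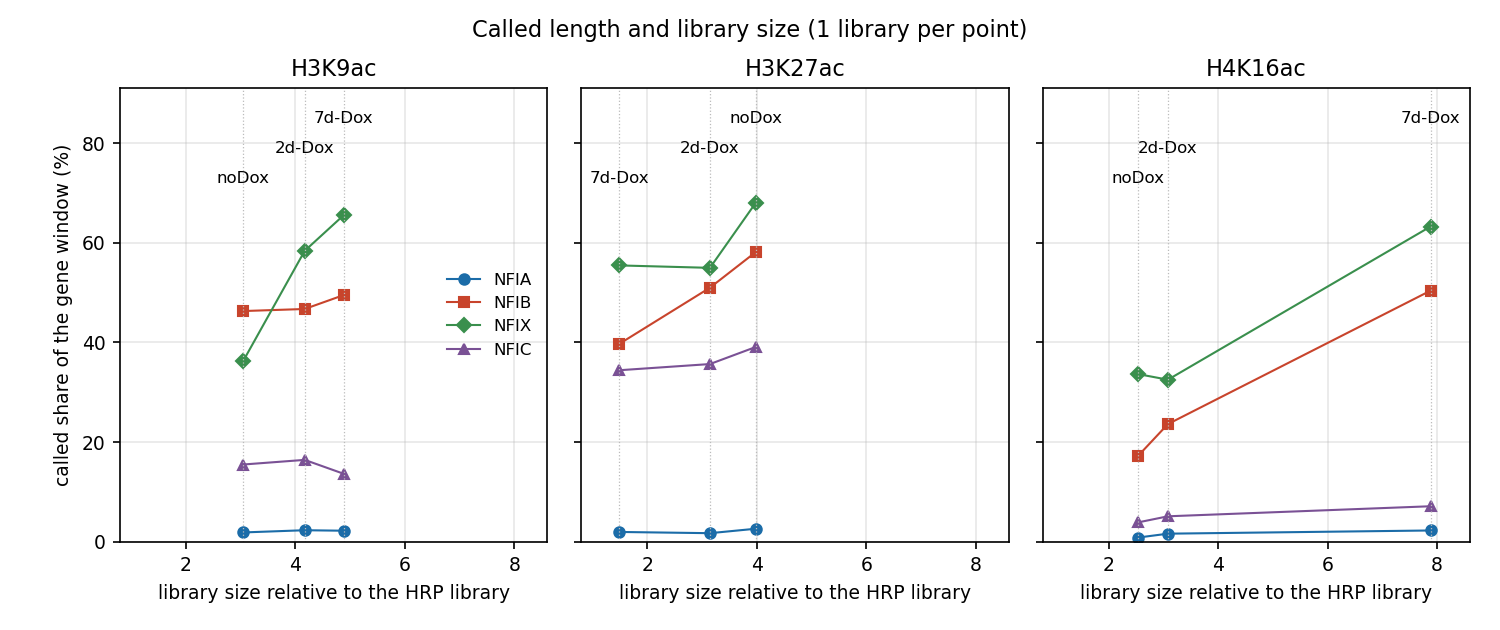
Share of each gene window called as islands (y axis, %) against library size relative to the HRP library (x axis), 1 point per library with its time written above. In H4K16ac the NFIB share was 50.4% in the 7d-Dox library of size 7.88, against 17.2% in the noDox library of size 2.53, and in H3K27ac it was 39.7% in the 7d-Dox library of size 1.49, against 58.1% in the noDox library of size 3.98.

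The H4K16ac regions past 2-fold at 7d-Dox were all in NFIB. Of 38 H4K16ac regions, 16 had an island at both 2d-Dox and noDox, with 4 at least 2-fold higher and 1 at least 2-fold lower, where 15.2% and 8.39% of 39750 regions in the genome were. At 7d-Dox, 8 of 16 were higher and 0 lower, where 22.9% and 2.4% of 47470 were. All 8 were among the 10 shared NFIB regions, and none among 4 in NFIX and 2 in NFIC. Scaling by the reads in islands made the 7d-Dox split 3 higher and 3 lower, and per kb of island it was 0 higher and 2 lower. The genome's shares on these measures were not computed. The median log2 ratio of the 10 NFIB regions was 1.28, beside 0.42 over the genome's regions, and per kb of island it was -0.55 beside -0.58.

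The largest H4K16ac difference upward at both times was at chr9:14278401-14286800, inside the NFIB domain chr9:14268201-14287000 described for H3K27ac. It had 14, 82 and 225 reads, or 5.53, 26.6 and 28.6 scaled reads, over 400, 5400 and 8000 bp. Its ratio was 2.27 (1.44 to 3.20) at 2d-Dox and 2.37 (1.59 to 3.26) at 7d-Dox, and -1.95 per kb at 7d-Dox. The NFIB region with the most reads at noDox, chr9:14205401-14247000, had 66.7, 70.0 and 158 scaled reads over 11400, 11800 and 39800 bp, a 7d-Dox ratio of 1.24 (1.01 to 1.48). The largest downward at 2d-Dox was also in NFIB, at chr9:14258201-14266200, with 20.9, 7.46 and 27.5 scaled reads and a ratio of -1.49 (-2.26 to -0.76). The largest downward at 7d-Dox was past the end of NFIX, at chr19:13210401-13215800, with 16.6, 12.3 and 9.14 scaled reads and a ratio of -0.86 (-1.43 to -0.28).

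NFIX had its H4K16ac toward the 3′ part of the gene. The region with the most reads, chr19:13159601-13185200, had 111, 62.6 and 120 scaled reads, with a ratio of -0.82 (-1.09 to -0.55) at 2d-Dox and 0.11 (-0.08 to 0.31) at 7d-Dox. Between 21.0 and 48.8 kb inside NFIX, 3 regions without an island at noDox held 17.1, 28.8 and 31.0 scaled reads at 7d-Dox, and 2 of them 15.6 and 13.0 at 2d-Dox. NFIA shared no H4K16ac base between noDox and either later time. Regions called in 1 library alone were common in this mark: the genome had 23784 at 2d-Dox only and 33499 at noDox only beside 39750 shared, and 28440 at 7d-Dox only and 25779 at noDox only beside 47470 shared. Its noDox islands were 3 of 1.0 to 1.2 kb, the one with the most reads, chr1:61637601-61638800, holding 21. At 7d-Dox its single island, chr1:61646401-61655600, held 241 reads at a fold of 1.33 over HRP in the authors' deposited list, and 75.2% of its scaled reads were matched by HRP reads.

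**Figure D5:**
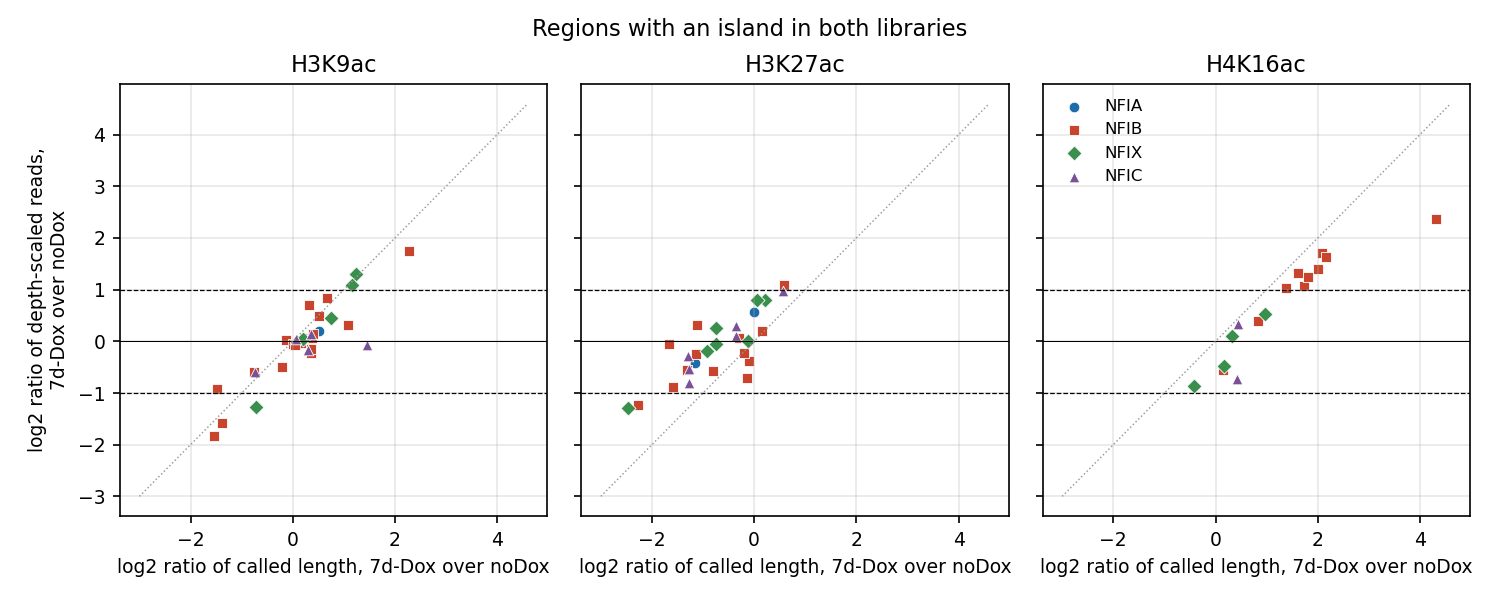
Log2 ratio of depth-scaled reads (y axis) against log2 ratio of called length (x axis), 7d-Dox over noDox, for regions of the 4 genes with an island in both libraries; dashed lines mark 2-fold and the dotted line equal ratios. The 8 H4K16ac regions above the upper dashed line are all NFIB and all lie below the dotted line, so their length ratio exceeded their read ratio.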

How the data were processed

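CUT&RUN island lists of 9 antibody libraries were used; the HRP library enters through its counts in them. SICER, Bowtie2 2.3.5.1, Picard, deepTools, FastQC and cutadapt were used on hg19, per the submitters' processing notes. Their settings and duplicate handling are recorded as not given in the sources used here. Per the file headers, the authors deposited for each island a raw count of antibody reads and of HRP reads, a p-value, an FDR (at most 0.05), a log2 fold over HRP and a score. The constant in the deposited log2 fold gave each library's size relative to HRP, and counts were divided by it. Islands that reach past a gene window were counted whole. Genome windows were laid end to end along each chromosome, without regard to genes. For ranks among genome windows, islands were prorated to the window. Windows ranked by level held an island in at least 1 of the 9 lists. Windows ranked by ratio held islands in both libraries and 50 or more unscaled reads in 1 of them. Touching islands of 1 mark were joined into regions across its lists. Regions named are those with the most reads at noDox per gene and mark, and the largest difference each way per mark and time, among regions called in both libraries with 50 or more reads in 1 of them; other regions in the text were chosen after their values were seen. Ratios have exact Clopper-Pearson intervals and counts exact Poisson intervals (scipy 1.17.1). Code was tested on simulated data. The gene windows and lists were chosen with earlier results of these data known. Plans for gene lists, markers and most similar genes needed an hg19 annotation and were not carried out. Alternatives were another scaling, windows not widened, prorated islands, islands at least 2-fold over HRP, reads per kb of island, shared bases and HRP subtraction. Reads over shared bases were prorated by length from whole islands and were not counted in those bases.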

Additional observations from a re-analysis of the deposited data

Results flagged for a closer look

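All pairs of the 4 genes and 3 marks were examined. In 3 pairs of gene and mark, from NFIX and NFIC, the ratio and its counting interval lay on opposite sides of 0 at 2 and 7 days of doxycycline. The share of genome windows with ratios on opposite sides of 0 was not computed. In H3K27ac, NFIC had a log2 ratio over noDox of -0.32 at 2d-Dox and 0.22 at 7d-Dox, a difference of 0.54, and NFIX had -0.20 and 0.09, a difference of 0.29. In H4K16ac, NFIX had -0.21 at 2d-Dox and 0.45 at 7d-Dox, a difference of 0.66. The differences were not tested, since each time has 1 library, and both ratios of a gene share the noDox library. Per kb of island the 2d-Dox and 7d-Dox values were -0.19 and 0.40 for NFIC in H3K27ac, 0.10 and 0.32 for NFIX in H3K27ac, and -0.20 and -0.46 for NFIX in H4K16ac. With scaling by the reads in islands, NFIX in H4K16ac had -0.28 and -0.06, on the same side of 0. In H3K27ac that scaling gave -0.22 and 0.24 for NFIC and -0.10 and 0.12 for NFIX, still on opposite sides. Genome windows of NFIX's length had H4K16ac medians of 0.098 at 2d-Dox and 0.52 at 7d-Dox. At 2d-Dox and 7d-Dox, 33.4% and 45.6% of these windows were lower than NFIX in H4K16ac, and 31.5% and 57.1% in H3K27ac. For NFIC in H3K27ac, 17.0% and 70.4% of windows of its length were lower.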

How the results depend on the processing

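No paired analysis was possible because each mark and time has 1 library, and for the same reason none could be left out. The log2 ratios of the 4 genes summed moved as follows. In H3K9ac at 2d-Dox, 0.052 became -0.14 per kb of island and -0.096 over shared bases. In H3K9ac at 7d-Dox, 0.037 became -0.019 with scaling by reads in islands, -0.23 per kb, -0.22 over shared bases and -0.059 with HRP reads subtracted, an alternative chosen after seeing the data. In H3K27ac at 2d-Dox, -0.10 became 0.0015 with the other scaling, 0.12 per kb and 0.054 over shared bases, and at 7d-Dox -0.13 became 0.27 per kb and 0.16 over shared bases. In H4K16ac at 2d-Dox, 0.17 became -0.15 per kb and -0.070 over shared bases. In H4K16ac at 7d-Dox, 0.77 became 0.26 with the other scaling, 0.12 in islands at least 2-fold over HRP, -0.53 per kb, -0.43 over shared bases and 0.39 with HRP reads subtracted. The NFIB ratio of H4K16ac at 7d-Dox reversed, to -0.54 per kb and -0.49 over shared bases. Regions past 2-fold were counted again per kb of island, where the genome's share was not computed. H3K9ac had 0 of 31 at 2d-Dox and 1 of 30, lower, at 7d-Dox (main count 6 at each). H3K27ac had 0 of 27 and 6 of 28, all higher (main count 3 at each). The genome's regions themselves had a median per-kb log2 ratio of 0.47 in H3K27ac at 7d-Dox. H4K16ac had 1 of 16 and 2 of 16, all lower (main counts 5 and 8). In islands at least 2-fold over HRP, H4K16ac had 0 of 12 and 2 of 9, again without a genome share. The cause was not tested. The per-kb values divide by called length. The shared-base values spread each island's reads evenly over its length, so they too depend on called length. Of the 24 single-gene ratios, 15 took the opposite sign per kb, 6 with the other scaling, 6 with HRP reads subtracted, and 0 with windows not widened or islands prorated. Over shared bases 10 of 22 did and in islands at least 2-fold over HRP 4 of 23. The missing ones are NFIA H4K16ac, which had no shared bases at either time and no such island at 7d-Dox.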
